A study of Mus musculus with 2 samples.

Results

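The superficial layer of mouse knee cartilage held chondrocytes that carried RNA of Serpina1e, Inhba and Col10a1, and 1318 of the 22438 deposited cell barcodes met the rule that defines them. A cell belonged to the population if Prg4, the lubricant of the joint surface, made up at least 20000 CPM of its transcripts (CPM, counts scaled to a total of 1000000). It also had no unique molecular identifier (UMI, 1 captured transcript) of Clic5 or Htra4, which mark joint lining cells here. Finally, it had at least 3 UMIs of Serpina1e, Inhba and Col10a1 together, and more of these than of Casr, Chst3 and Erg together. The rule therefore fixes the levels of these genes, which are given below as a description.

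Wild-type mice had received DMM, a surgical release of the medial meniscus used to model osteoarthritis, or sham surgery, and their knee joint cartilage was dissociated into single cells. Each group was 1 library, made from the pooled cells of 3 mice, and the age of the mice and the time after surgery are not given in the labels used here. Live cells without the blood and vessel surface proteins CD45, Ter119 and CD31 had been sorted before capture. With 1 library per group no test between DMM and sham was possible, surgery and library cannot be told apart, and the bracketed 95% intervals cover counting error only.

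The DMM library held 11076 barcodes and 97346999 UMIs, and the sham library 11362 barcodes and 106799078 UMIs. Cells with 500 or more genes and no more than 10% mitochondrial UMIs were kept, 9889 DMM and 9992 sham cells. The libraries shared 24 barcodes, of which 1 belonged to the population in both. Barcodes rich in haemoglobin numbered 357 in the DMM library and 746 in the sham library, although Ter119 marks red cells. Haemoglobin RNA also reached the population, at 1422 CPM in DMM cells and 3430 CPM in sham cells.

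The superficial zone is the outermost layer of articular cartilage, and its flat chondrocytes secrete Prg4 and the matrix protein Cilp. Col10a1 encodes collagen X, the classical product of hypertrophic chondrocytes in the growth plate and calcified zone. Inhba encodes the subunit that pairs with itself to form activin A, a ligand of the TGF-beta family, and Serpina1e is a mouse member of the alpha-1-antitrypsin family of protease inhibitors.

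The Serpina1 genes are near-copies that lie side by side, so their start regions are shown to make plain how alike the members are whose levels differed between cartilage cells. The windows below are from RefSeq (GRCm38.p6), all on the minus strand, 5′ to 3′, aligned to the one that begins 152 bases before the Serpina1e start. Capitals mark bases that differ from Serpina1e.
Serpina1e, chr12:103956964-103957049: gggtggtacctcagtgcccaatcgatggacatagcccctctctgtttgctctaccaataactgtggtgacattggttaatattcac
Serpina1b, chr12:103738204-103738289: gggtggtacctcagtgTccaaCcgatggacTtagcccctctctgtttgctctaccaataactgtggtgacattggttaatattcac
Serpina1a, chr12:103863629-103863714: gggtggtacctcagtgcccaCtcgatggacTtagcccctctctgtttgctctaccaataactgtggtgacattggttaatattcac
Serpina1d, chr12:103773638-103773723: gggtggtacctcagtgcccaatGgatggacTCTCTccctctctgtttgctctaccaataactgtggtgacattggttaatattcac
Serpina1c, chr12:103904966-103905051: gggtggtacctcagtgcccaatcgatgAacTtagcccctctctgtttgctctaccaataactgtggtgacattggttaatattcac

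Over the 300-base windows that RefSeq gives around each start, 98.4% of 248 aligned bases of Serpina1b equalled Serpina1e. The share was 95.9% of 243 bases for Serpina1a, 96.2% of 238 for Serpina1d and 95.2% of 249 for Serpina1c. How reads that match several copies were counted is not given in the sources used here. In the last 500 bases of the transcripts, where 3′ libraries are read, 100% of 90-base stretches of Serpina1e occurred in no other Serpina1 gene. That share was 96.4% for Serpina1b, 92.5% for Serpina1d, 84.7% for Serpina1c and 78.1% for both longer transcripts of Serpina1a, so values of Serpina1a and Serpina1c are the least certain. The annotated span of Serpina1b also runs across Serpina1d on the same strand.

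The start regions of the other genes that define the cells are shown for comparison, both on the plus strand, with the letters TATAAA in capitals.
Col10a1, chr10:34389909-34389980: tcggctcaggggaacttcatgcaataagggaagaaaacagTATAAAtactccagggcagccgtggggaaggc
Inhba, chr13:16011720-16011825: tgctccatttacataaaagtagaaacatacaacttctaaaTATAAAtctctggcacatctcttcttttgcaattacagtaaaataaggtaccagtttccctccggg

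TATAAA began 32 bases before the start of Col10a1 and 91 bases before that of Inhba. Searched on both strands, TATAAA occurred in 13.6% of the 32851 RefSeq promoters of 300 bases, so a match is common and is given as a description only.

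The population made up 773 of 9889 DMM cells (7.82%, exact interval 7.30 to 8.36) and 545 of 9992 sham cells (5.45%, 5.02 to 5.92). Its share of all cells was thus 1.43-fold higher in the DMM library [1.29 to 1.59]. The total depends on how many red cells and other cells each preparation held. Among Prg4-rich cells without a Clic5 or Htra4 UMI, the population made up 773 of 1065 DMM cells (72.6%, 69.8 to 75.2) and 545 of 883 sham cells (61.7%, 58.4 to 64.9), a 1.18-fold higher share [1.10 to 1.25]. With no UMI of Casr, Chst3 or Erg allowed, the rule left 184 DMM and 73 sham cells, and the share was 2.55-fold higher in the DMM library of all cells [1.94 to 3.34] and 2.09-fold higher of Prg4-rich cells [1.62 to 2.70]. The cells with more UMIs of Casr, Chst3 and Erg, called Casr cells below (at least 3 such UMIs), numbered 148 in the DMM library and 202 in the sham library.

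Depth was similar in both libraries, with a median of 8413 UMIs and 2682 genes per DMM cell and 9215 UMIs and 2923 genes per sham cell. Mitochondrial UMIs made up a median of 1.60% in DMM cells and 1.65% in sham cells. Few cells stood at the edge of the rule. Exactly 3 UMIs of the defining trio were found in 17 DMM and 16 sham members, and 21 DMM and 16 sham cells missed the rule with 2 UMIs. The trio exceeded Casr, Chst3 and Erg by 1 UMI in 18 members of each library, while 7 DMM and 16 sham cells had equal numbers and stayed outside. Prg4 lay between 20000 and 22000 CPM in 12 DMM and 23 sham members, and between 18000 and 20000 CPM in 16 DMM and 15 sham cells left out. A larger group, 204 DMM and 161 sham cells, met all else but had 1 UMI of Clic5 or Htra4. A further 426 DMM and 258 sham cells met all else but had 2 or more such UMIs. Many cells with lining UMIs thus also had high Prg4 and the trio.

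The label of superficial chondrocytes was checked on cartilage genes outside the rule, since the rule itself sets Prg4, which stood at 69208 CPM in DMM cells and 68529 CPM in sham cells, summed over the cells of the population. Cilp, a protein of the cartilage matrix between cells, stood at 8953 CPM in DMM cells and 10592 CPM in sham cells. In deep chondrocytes (low Prg4, with Pcp4, Rgs6 and Pax1) Cilp reached 148 CPM in the DMM library and 109 CPM in the sham library. Lining cells had 3042 CPM of Cilp in the DMM library and 5934 CPM in the sham library. Casr cells had 9858 CPM in the DMM library and 9518 CPM in the sham library. Cilp thus set the population apart from deep chondrocytes, less so from lining cells, and not from Casr cells. Cilp is a single gene, and the other superficial zone genes were not counted against deep chondrocytes. Thbs1 had the other order in both libraries. It had 160 CPM in DMM and 285 CPM in sham cells of the population, against 406 CPM in DMM and 540 CPM in sham deep chondrocytes. Vit was near equal, at 221 and 249 CPM against 251 and 248 CPM.

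The chondrocyte regulator Sox9 was at 2277 CPM in DMM cells and 2285 CPM in sham cells, close to its 2134 CPM in DMM and 2153 CPM in sham deep chondrocytes. Aggrecan (Acan), the large cartilage proteoglycan, had 2204 CPM in DMM cells and 2712 CPM in sham cells. The cartilage collagen gene Col2a1 had 1775 CPM in DMM cells and 1893 CPM in sham cells. Deep chondrocytes had 18541 CPM in the DMM library and 20626 CPM in the sham library. Their rule asks for at least 1000 CPM of Col2a1 in each cell, so this order is a description and no check of the label. Procr and Eng, surface proteins that the study sorted on elsewhere, were low here, Procr at 10.4 CPM in DMM cells and 7.02 CPM in sham cells, and Eng at 21.0 CPM in DMM cells and 21.4 CPM in sham cells.

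The 3 defining genes had nearly the same level in both libraries. Serpina1e was at 477 CPM [461 to 493] in DMM cells and 473 CPM [456 to 491] in sham cells. Inhba was at 1754 CPM [1724 to 1784] in DMM cells and 1907 CPM [1871 to 1942] in sham cells. Col10a1 was at 2170 CPM [2137 to 2204] in DMM cells and 2345 CPM [2306 to 2385] in sham cells. The log2 ratio of DMM over sham was 0.01 for Serpina1e, -0.12 for Inhba and -0.11 for Col10a1, and the median over all genes compared was -0.09.

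**Figure D1:**
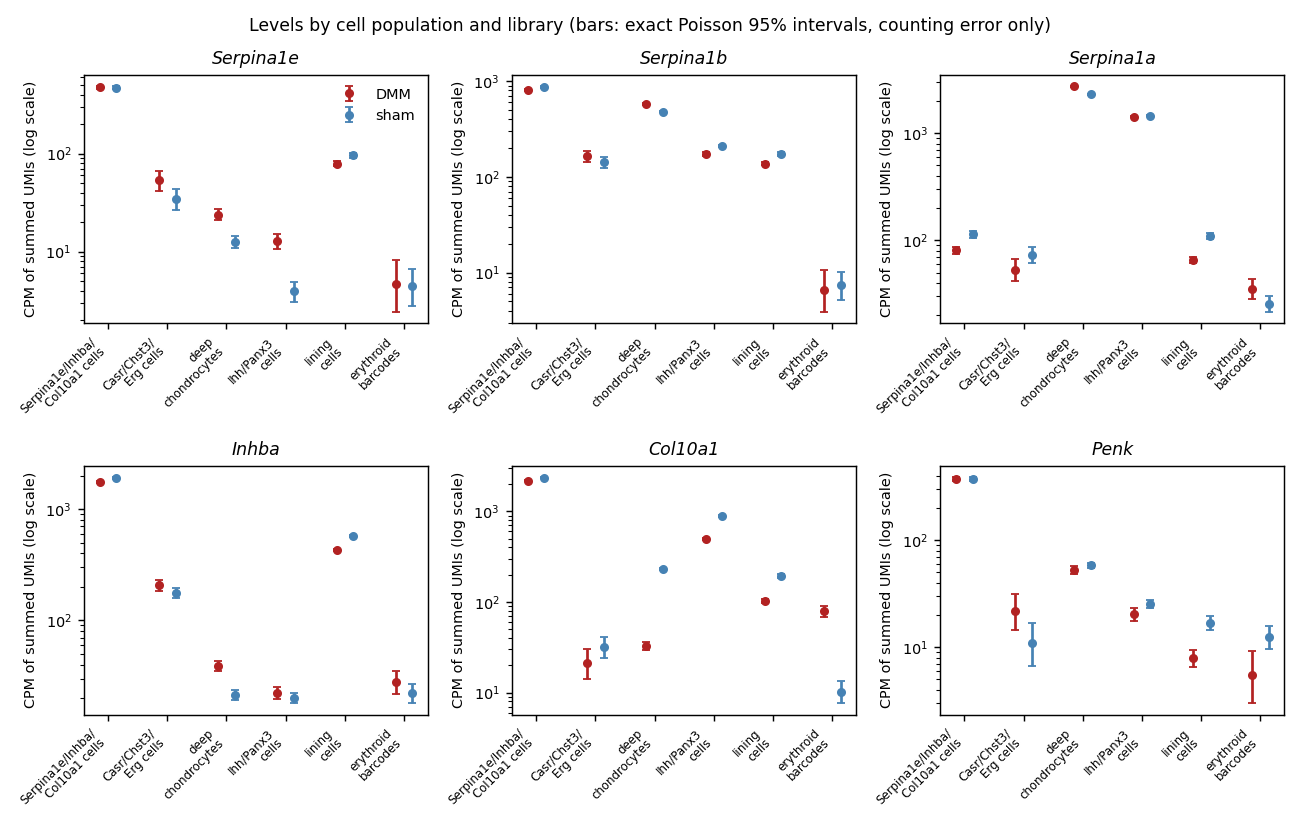
Each panel plots the CPM of a gene on a log axis in 6 sets of cells, with DMM in red left of sham in blue and exact Poisson 95% intervals as bars. Serpina1e, Inhba, Col10a1 and Penk were highest in the population described here, whereas Serpina1a was highest in deep chondrocytes, at 2736 CPM in the DMM library and 2318 CPM in the sham library.

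The protease inhibitors of the Serpina1 family differed between sets of cartilage cells. Serpina1b had 807 CPM in DMM cells and 869 CPM in sham cells of the population, against 164 CPM in DMM and 141 CPM in sham Casr cells. Its level in deep chondrocytes was 578 CPM in the DMM library and 481 CPM in the sham library. Serpina1b thus differed more between the population and Casr cells, both rich in Prg4, than between the population and deep chondrocytes. Serpina1a was lower in the population than in deep chondrocytes, with 80.7 CPM in DMM cells and 115 CPM in sham cells of the population. Serpina1d was likewise a gene of the deep cells, where it had 1200.2 CPM in the DMM library and 1086 CPM in the sham library. In the population Serpina1d had 38.0 CPM in DMM cells and 84.8 CPM in sham cells, with 14.9% of the DMM UMIs and 22.2% of the sham UMIs in a single cell, and that direction turned with at least 40000 CPM of Prg4 (log2 ratio 0.45). Without the doublets described below, Serpina1a had 53.6 CPM in DMM cells and 22.2 CPM in sham cells, the opposite order of the libraries. Serpina1c was near the floor, at 3.28 CPM in DMM cells and 7.19 CPM in sham cells, and without those doublets at 2.56 CPM in DMM cells and 1.34 CPM in sham cells.

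Genes of hypertrophy were set beside cells with at least 3 UMIs of Ihh and Panx3, markers of hypertrophic chondrocytes. The rules for both sets of cells fix the order of Col10a1, Ihh and Panx3, so these are given as levels only. Col10a1 had 496 CPM in the DMM library and 890 CPM in the sham library of the Ihh and Panx3 cells. Of the other 16 hypertrophy and mineral genes compared, 8 were at least 2-fold lower in the population in both libraries (10.9% of all 11195 genes), 2 at least 2-fold higher (9.46% of all genes) and 6 neither. The list's median log2 ratio of the population over the Ihh and Panx3 cells was -1.96 in the DMM library and -1.76 in the sham library, against 0.12 and 0.01 for all genes. Runx2, the transcription factor of hypertrophy and bone, was at 39.0 CPM in DMM cells and 39.6 CPM in sham cells of the population. In the Ihh and Panx3 cells it was at 749 CPM in the DMM library and 956 CPM in the sham library.

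The parathyroid hormone receptor Pth1r was at 35.1 CPM in DMM cells and 26.7 CPM in sham cells of the population, against 1096 CPM in DMM and 889 CPM in sham Ihh and Panx3 cells. Alkaline phosphatase (Alpl), which supports mineral deposition, was at 40.9 CPM in DMM cells and 37.3 CPM in sham cells, against 1047 CPM in DMM and 969 CPM in sham Ihh and Panx3 cells. The 2 genes higher in the population were the growth factor Bmp2, at 1045 CPM in DMM cells and 1141 CPM in sham cells against 179 CPM in DMM and 245 CPM in sham Ihh and Panx3 cells, and the pyrophosphate transporter Ank. Osteopontin (Spp1), a mineral-binding matrix protein, was among the 6 that passed neither way, at 1383 CPM in DMM cells and 756 CPM in sham cells against 925 CPM in DMM and 436 CPM in sham Ihh and Panx3 cells. Indian hedgehog (Ihh) had 1.44 CPM in DMM cells and 2.57 CPM in sham cells. The mineral-binding protein Ibsp had 528 CPM in DMM cells and 474 CPM in sham cells, but 43.8% of the DMM UMIs and 21.3% of the sham UMIs came from a single cell. Its log2 ratio of DMM over sham was 0.16, and -0.33 once that top cell was left out of each library.

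Genes that led the population against all other cells kept are given as a description, because the cells were chosen by some of them. They were ranked by the smaller of both libraries' ratios. Serpina1e led, 9.78-fold higher in the DMM library and 14.8-fold higher in the sham library. The sulfotransferase gene Chst5 followed, with 185 CPM in DMM cells and 165 CPM in sham cells, 9.62-fold above the other cells of the DMM library and 11.5-fold above those of the sham library. Single libraries gave other orders, since Sbspon, the gene of a secreted protein, was 9.85-fold higher in the DMM library and Inhba 12.8-fold higher in the sham library. Nestin (Nes), an intermediate filament protein, was 8.19-fold higher in the DMM library and 9.84-fold higher in the sham library. The opioid precursor Penk was 7.98-fold higher in the DMM library and 7.30-fold higher in the sham library. Smoc2, a calcium-binding matrix protein, had 1095 CPM in DMM cells and 1390.4 CPM in sham cells. Ecrg4, a secreted peptide precursor, was among the most abundant RNAs, at 25341 CPM in DMM cells and 21943 CPM in sham cells, and had a UMI in 99.5% of DMM cells and 100% of sham cells. The Casr cells described below shared several of these leaders, with 96.9 CPM of Chst5 in DMM and 72.8 CPM in sham Casr cells, 36.0 CPM of Nes in DMM and 76.6 CPM in sham Casr cells, and 15312 CPM of Ecrg4 in DMM and 12019 CPM in sham Casr cells. The population exceeded them 1.91-fold in the DMM library and 2.27-fold in the sham library for Chst5, and 1.94-fold in the DMM library and 1.76-fold in the sham library for Nes.

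The 3 defining genes were not spread evenly over the cells. After thinning each cell to 5000 UMIs (696 DMM and 498 sham cells were deep enough), Inhba was seen in 76.9% of DMM cells and 67.9% of sham cells. Col10a1 was seen in 56.5% of DMM cells and 57.8% of sham cells, and Serpina1e in 44.0% of DMM cells and 47.4% of sham cells. Before thinning, Inhba was seen in 83.8% of DMM cells and 73.8% of sham cells, Col10a1 in 59.3% of DMM and 62.2% of sham cells, and Serpina1e in 47.1% of DMM and 53.4% of sham cells. All 3 genes were seen together in 117 thinned DMM cells (16.8%) and 68 thinned sham cells (13.7%). Inhba alone was seen in 174 DMM and 108 sham cells, Col10a1 alone in 66 DMM and 60 sham cells, and Serpina1e alone in 25 DMM and 26 sham cells. Free RNA can add single UMIs to a cell, and Casr cells showed Col10a1 in 12.2% of DMM cells and 9.41% of sham cells at median depths of 7624 UMIs in DMM and 8025 UMIs in sham Casr cells.

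Col10a1 and Inhba tended to be high in different cells, with a Spearman correlation of -0.29 over the 696 thinned DMM cells and -0.34 over the 498 thinned sham cells. Membership needs UMIs of at least 1 gene of the trio, so cells low in all 3 are missing by construction, which affects these values. Serpina1e and Inhba gave -0.21 in DMM cells and -0.26 in sham cells, and Serpina1e and Col10a1 gave 0.03 in DMM cells and 0.04 in sham cells. Serpina1e and Serpina1b, whose start regions differ at few bases, gave 0.36 in DMM cells and 0.30 in sham cells. Serpina1b was no part of the rule.

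**Figure D2:**
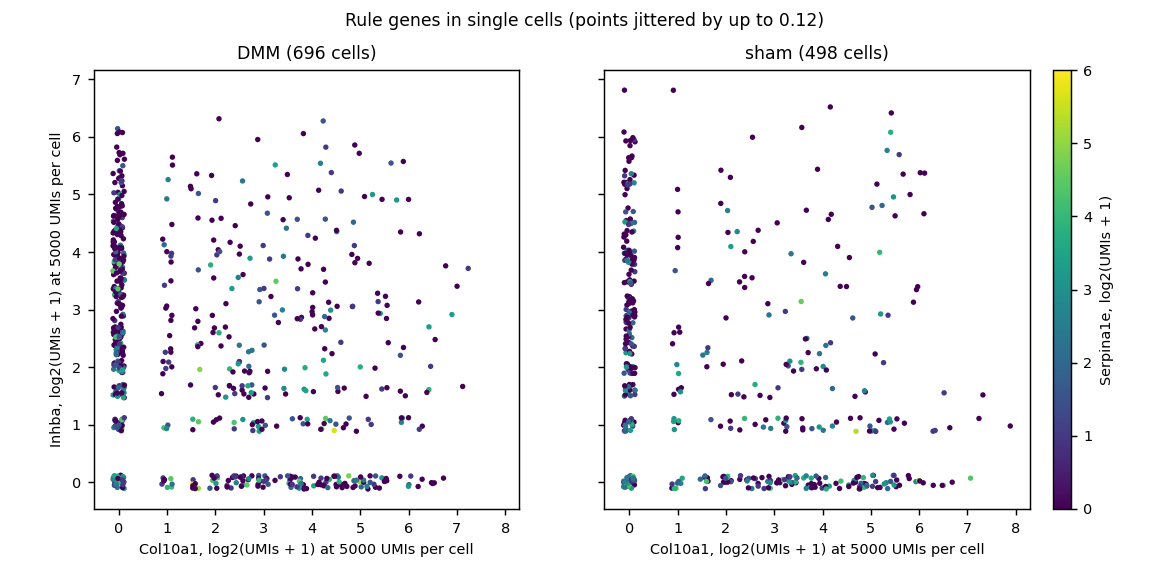
Each point is a cell thinned to 5000 UMIs, DMM on the left and sham on the right, with log2(UMIs + 1) of Col10a1 across and of Inhba upward, and colour for Serpina1e. Many cells lie along an axis, with Col10a1 or Inhba alone, and cells with high counts of both are fewer.

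To describe this further, members were divided by which gene had more UMIs, a division chosen after the data were seen. Col10a1 led in 311 DMM cells (40.2%, 36.8 to 43.8) and 244 sham cells (44.8%, 40.5 to 49.1). Inhba led in 405 DMM cells (52.4%, 48.8 to 56.0) and 247 sham cells (45.3%, 41.1 to 49.6). The remaining 57 DMM and 54 sham cells had more Serpina1e or a tie. Of 7875 genes compared, 41 (0.521%) were at least 2-fold higher and 76 (0.965%) at least 2-fold lower in Col10a1-led than in Inhba-led cells in both libraries, with intervals that did not reach equality.

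Genes at least 2-fold higher in Col10a1-led cells included 3 secreted Wnt inhibitors, Frzb, Sfrp5 and Wif1. They were the higher members among 6 genes of the Wnt list compared, of which Wnt9a, a ligand, was at least 2-fold lower. Over all genes compared, 0.521% were higher and 0.965% lower in this way. Frzb was at 191 CPM in Col10a1-led and 52.1 CPM in Inhba-led DMM cells, and at 176 CPM in Col10a1-led and 43.9 CPM in Inhba-led sham cells. Sfrp5 was 8.97-fold higher in the DMM library and 3.65-fold higher in the sham library, and Wif1 was 2.15-fold higher in the DMM library and 2.91-fold higher in the sham library. Osteomodulin (Omd), a small proteoglycan of mineralised tissue, was 5.55-fold higher in the DMM library and 8.02-fold higher in the sham library. Serpina1b was higher in the same cells, at 1319 CPM in Col10a1-led and 416 CPM in Inhba-led DMM cells, and 1388 CPM in Col10a1-led and 422 CPM in Inhba-led sham cells. The transglutaminase subunit F13a1 and the lysophospholipase Enpp2 were also at least 2-fold higher in both libraries.

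Inhba-led cells had more RNA of Vcan, a hyaluronan-binding proteoglycan, of the hyaluronan-binding protein Tnfaip6 and of the mineralisation inhibitor Mgp. Vcan was at 26.4 CPM in Col10a1-led and 177 CPM in Inhba-led DMM cells, and at 64.2 CPM in Col10a1-led and 343 CPM in Inhba-led sham cells. Mgp was 3.26-fold lower in Col10a1-led than in Inhba-led cells of the DMM library and 4.64-fold lower in the sham library. The growth factor Bmp6 and the metal-binding proteins Mt1 and Mt2 were also at least 2-fold higher in Inhba-led cells of both libraries. Il11, a cytokine of the interleukin-6 family, had most of its UMIs in Inhba-led cells. It stood at 8.90 CPM in Col10a1-led and 185 CPM in Inhba-led DMM cells, and at 4.53 CPM in Col10a1-led and 145 CPM in Inhba-led sham cells, where a single cell held 47.9% of its UMIs. The cartilage genes Col2a1 and Acan differed by at most 1.14-fold between Col10a1-led and Inhba-led cells in either library. Vcan, of the same cartilage matrix list, did divide, and the list was not counted for this division.

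Variation among the cells was described by the Fano factor, the variance over the mean of thinned UMIs, with a median over 3267 genes of 1.12 in DMM cells and 1.13 in sham cells. It grows with a gene's mean where cells differ in proportion to it, so abundant genes rank high, and Prg4 and Col10a1 were also part of the rule. Haemoglobin genes headed the ranking, with 481 for Hbb-bs in DMM cells and 427 in sham cells. The secreted protein gene Msmp had 130 in DMM cells and 117 in sham cells, and a UMI in 20.1% of DMM cells and 24.2% of sham cells. Haemoglobin-rich barcodes of the sham library carried 752 CPM of Msmp, and those of the DMM library 48.7 CPM. Mgp, with 171 in DMM cells and 106 in sham cells, had a UMI in 90.6% of DMM cells and 90.3% of sham cells. Spp1 had 91.3 in DMM cells and 65.0 in sham cells, and Ibsp 115 in DMM cells and 93.8 in sham cells, both known from mineralising tissue. The opioid precursor Penk had 52.3 in DMM cells and 76.3 in sham cells, where a single cell held 23.3% of its UMIs.

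The closest neighbours, the Casr cells, share the Prg4 rule and differ by the trio against Casr, Chst3 and Erg. Because the same cells were divided by these genes, the ratios between both sets are a description and no test. Of 8754 genes compared, 112 (1.28%) were at least 2-fold higher and 44 (0.503%) at least 2-fold lower in the population in both libraries, with intervals that did not reach equality. At 1.5-fold, 234 (2.67%) were higher and 194 (2.22%) lower. The median log2 ratio over all these genes was 0.00 in the DMM library and -0.06 in the sham library.

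Genes higher in the population included signalling and secreted proteins. Penk had 373 CPM in the population and 21.8 CPM in Casr cells of the DMM library, and 372 CPM in the population and 10.9 CPM in Casr cells of the sham library. Krt16, a keratin, was 38.2-fold higher in the DMM library [log2 5.26, 3.40 to 8.31] and 26.1-fold higher in the sham library [4.71, 3.34 to 6.59]. The secreted glycoprotein Stc2 was 8.16-fold higher in the DMM library [log2 3.03, 2.46 to 3.66] and 6.67-fold higher in the sham library [2.74, 2.19 to 3.34]. Both Penk and Krt16 rested on few UMIs in Casr cells, with 29 UMIs of Penk and 2 of Krt16 in the DMM library and 20 of Penk and 4 of Krt16 in the sham library.

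Some genes of matrix turnover were also higher. Of 14 matrix proteases and inhibitors compared, Timp1 was at least 2-fold higher in both libraries (1.28% of all genes). The protease Adamts9 was at least 2-fold lower in both (0.503% of all genes). Timp1, an inhibitor of metalloproteinases, had 437 CPM in the population and 89.4 CPM in Casr cells of the DMM library, and 520.3 CPM in the population and 54.4 CPM in Casr cells of the sham library. Tnfaip6 was 4.55-fold higher in the DMM library and 6.95-fold higher in the sham library. Lox, which crosslinks collagen, was 3.20-fold higher in the DMM library and 2.88-fold higher in the sham library. The receptor gene Bmpr1b was 2.89-fold higher in the DMM library and 4.28-fold higher in the sham library. Of 17 fibrous matrix genes compared, fibronectin (Fn1) was at least 2-fold higher in both libraries (1.28% of all genes). The microfibril protein Fbn1 was at least 2-fold lower (0.503% of all genes). Fn1 was at 4612 CPM in the population and 1632 CPM in Casr cells of the DMM library, and 3552 CPM in the population and 1458 CPM in Casr cells of the sham library.

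Among nuclear proteins, the chromatin protein Hmga2 was 11.1-fold higher in the DMM library and 5.28-fold higher in the sham library. The AP-1 subunit Fosl1 was 6.64-fold higher in the DMM library and 3.25-fold higher in the sham library. The cell cycle regulator Sfn was 6.23-fold higher in the DMM library and 9.39-fold higher in the sham library. These ratios also rested on few UMIs in Casr cells. The DMM library held 10 of Hmga2, 15 of Fosl1 and 15 of Sfn there, and the sham library 26, 29 and 10. Fxyd2, a subunit that adjusts the sodium pump, had 575 CPM in the population and 155 CPM in Casr cells of the DMM library, and 337 CPM in the population and 108 CPM in Casr cells of the sham library. The actin-binding protein gene Nebl and Ddit4l, a regulator of mTOR signalling, were at least 2-fold higher in both libraries.

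**Figure D3:**
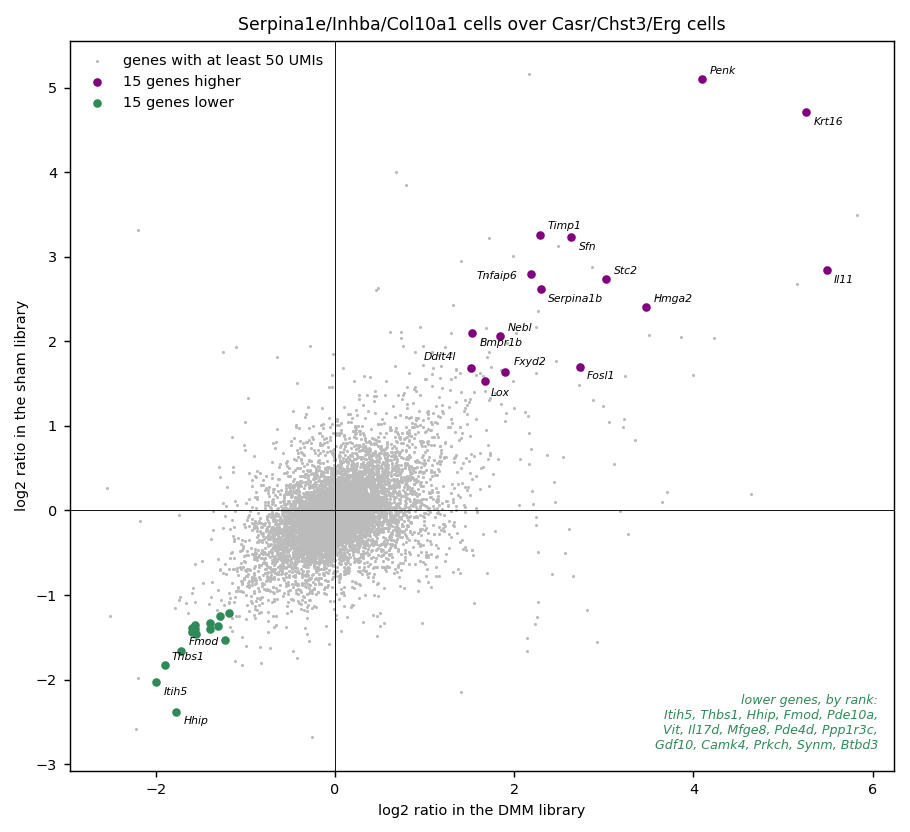
Each grey point is a gene with at least 50 UMIs in each library, plotted by its log2 ratio of the population over Casr cells in the DMM library (across) and in the sham library (upward). The 15 highest genes by rule (purple) include Penk, Krt16 and Il11, and the 15 lowest (green) lie between -2.38 and -1.18 in both libraries.

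Genes lower in the population than in Casr cells included several matrix proteins. Thbs1, an adhesive glycoprotein, had 160 CPM in the population and 597 CPM in Casr cells of the DMM library, and 285 CPM in the population and 1013 CPM in Casr cells of the sham library. Vitrin (Vit) was 3.01-fold lower in the DMM library and 2.71-fold lower in the sham library. Fibromodulin (Fmod), which regulates collagen fibrils, was 3.29-fold lower in the DMM library and 3.15-fold lower in the sham library. Itih5, a binding partner of hyaluronan, was 3.99-fold lower in the DMM library and 4.09-fold lower in the sham library.

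Signalling genes were found on the lower side too. Hhip, which binds and restrains hedgehog ligands, had 39.5 CPM in the population and 135 CPM in Casr cells of the DMM library, and 49.8 CPM in the population and 259 CPM in Casr cells of the sham library. The phosphodiesterase genes Pde4d and Pde10a, which break down cyclic nucleotides, were at least 2-fold lower in both libraries. The kinase genes Camk4 and Prkch were also at least 2-fold lower, and so was Gdf10, a ligand of the TGF-beta family. The log2 ratio of the long Pde4d gene was -1.60 in the DMM library and -1.39 in the sham library.

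Described by gene lists, inflammation and prostaglandin genes were those most often higher than in Casr cells. Of 13 members compared, 5 were at least 2-fold higher in both libraries (1.28% of all genes) and none was lower (0.503% of all genes). The list median log2 ratio was 1.19 in the DMM library and 0.79 in the sham library. The 5 higher genes were Il11, Lif, Lcn2, Cxcl1 and Tnfaip3. For Il11, DMM Casr cells held 3 UMIs, and a single cell held 46.2% of the sham UMIs in the population. Il11 was seen in 7.89% of DMM and 6.79% of sham cells of the population, against 1.35% of DMM and 6.93% of sham Casr cells. The iron-binding defence protein gene Lcn2 had 64.9 CPM in the population and 17.3 CPM in Casr cells of the DMM library, and 42.1 CPM in the population and 19.0 CPM in Casr cells of the sham library. The cytokine Lif was 2.25-fold higher in the DMM library and 2.15-fold higher in the sham library. For the chemokine Cxcl1 a single cell held 28.0% of the DMM UMIs.

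Over all 8754 genes compared, 1.28% were at least 2-fold higher and 0.503% at least 2-fold lower in both libraries. Of 15 superficial zone and lubrication genes, Cd44 and Timp3 were at least 2-fold higher in both libraries, and Vit and Thbs1 at least 2-fold lower. Of 18 cartilage matrix genes, Vcan was higher and Fmod lower. Of 16 hypertrophy and mineral genes, none passed 2-fold in either direction in both libraries. Of 14 activin and TGF-beta ligands and brakes, Ltbp2, which binds matrix fibrils, was higher and Gdf10 lower. Serpina1b and Serpina3n were higher among 11 serpins. The hedgehog and PTHrP list, 10 genes, had Pthlh higher and Hhip lower. No member passed 2-fold among 20 respiratory chain, 17 endoplasmic reticulum folding, 18 glycolysis and hypoxia and 17 joint transcription factor genes.

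Between the libraries, genes of the population were compared over summed UMIs. Of 10428 genes with at least 50 UMIs, 83 (0.796%) were at least 2-fold higher and 229 (2.2%) at least 2-fold lower in DMM than in sham cells, with intervals that did not reach equality. At 1.5-fold, 392 (3.76%) were higher and 1004 (9.63%) lower. The balance depends on scaling, since median-of-ratios scaling gave 121 higher and 159 lower. It also depends on doublets, barcodes that hold more than 1 cell. Without the 29 DMM and 38 sham members that Scrublet called, 120 were higher and 130 lower, and 65 of the 83 and 104 of the 229 genes were shared.

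Of the 125 lower genes lost without these barcodes, 89 (71.2%) were higher in the haemoglobin-rich barcodes of the sham library than in the population, against 115 (50.2%) of all 229 lower genes and 24.9% of all genes compared. The summed level of the erythroid marker list was 1479 CPM in DMM cells and 3549 CPM in sham cells, and without the called doublets 826 CPM in DMM cells and 1535 CPM in sham cells. All 8 listed erythroid markers were at least 1.5-fold lower in DMM cells before that removal, and 3 of 5 compared after it. Endothelial markers were low, at 3.81 CPM in DMM cells and 5.31 CPM in sham cells. So were leukocyte markers, at 18.1 CPM in DMM cells and 4.11 CPM in sham cells. The 6 lining markers were not low, with a sum of 1849 CPM in DMM cells and 1702 CPM in sham cells. Most of that sum came from Hbegf and Tspan15. Clic5 and Htra4 were at 0 by the rule. Col22a1 had 13.3 CPM in DMM cells and 1.37 CPM in sham cells, and Pla1a 13.4 CPM in DMM cells and 0.68 CPM in sham cells. Mural cell markers summed to 78.4 CPM in DMM cells and 60.3 CPM in sham cells, and without called doublets to 54.4 CPM in DMM cells and 18.6 CPM in sham cells. Of 5 mural markers compared, Acta2 and Tagln were at least 1.5-fold higher in DMM cells and Myh11 lower, and a single cell held 40.7% of the DMM UMIs and 44.0% of the sham UMIs of Acta2. Osteoblast markers, which include Col1a1, summed to 1037 CPM in DMM cells and 689 CPM in sham cells, and fibroblast markers to 208 CPM in DMM cells and 209 CPM in sham cells.

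Collagens of fibrous tissue led the genes higher in DMM cells. Col1a1, the main chain of collagen I, had 421 CPM in DMM cells and 142 CPM in sham cells [log2 1.57, 1.46 to 1.69]. Col3a1, of collagen III, had 297 CPM in DMM cells and 102 CPM in sham cells [1.55, 1.42 to 1.68]. Lumican (Lum), a collagen-binding proteoglycan, had 360 CPM in DMM cells and 164 CPM in sham cells [1.13, 1.03 to 1.24]. All 3 were higher in the DMM library over the other cells kept too. There Col1a1 had 4270 CPM in the DMM library and 2442 CPM in the sham library, and Col3a1 2658 CPM and 1162 CPM. Lum had 1506 CPM in the DMM library and 716 CPM in the sham library there, and 321 CPM and 144 CPM in Casr cells.

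Shares of single cells and levels in other sets of barcodes are given beside these values. One cell held 17.4% of the DMM UMIs and 20.1% of the sham UMIs of Col1a1, and haemoglobin-rich barcodes carried 286 CPM of it in the DMM library and 310 CPM in the sham library. Lining cells had 1796 CPM of Col1a1 in the DMM library and 1236 CPM in the sham library, and 2452 CPM of Col3a1 in the DMM library and 1179 CPM in the sham library. The lining markers Col22a1 and Pla1a and 2 mural markers were higher in DMM cells too, as given above. Without called doublets, Col1a1 had 286 CPM in DMM cells and 76.7 CPM in sham cells, and Col3a1 195 CPM in DMM cells and 30.4 CPM in sham cells. The part of free RNA or of other cell types in the difference was not tested. Col1a2, the partner chain, had 394 CPM in DMM cells and 222 CPM in sham cells. Of 18 fibrous matrix genes, 5 were at least 2-fold higher in DMM cells (0.796% of all genes) and none lower, the others being Postn and Tnc. At 1.5-fold, 6 were higher (3.76% of all genes) and 3 lower (9.63% of all genes), the lower ones being Col5a1, Col14a1 and Fbn1. Col5a1, a chain of collagen V, had 64.5 CPM in DMM cells and 100.3 CPM in sham cells, and Fbn1 27.8 CPM in DMM cells and 47.4 CPM in sham cells. The ratio of Col14a1 turned without called doublets, at 4.40 CPM in DMM cells and 3.83 CPM in sham cells. For Postn a single cell held 66.2% of the DMM UMIs and 53.3% of the sham UMIs, and the list's median log2 ratio was -0.04.

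Spp1 had 1383 CPM in DMM cells and 756 CPM in sham cells [log2 0.87, 0.82 to 0.92]. In Casr cells it had 1006 CPM in the DMM library and 124 CPM in the sham library, a log2 ratio of 3.02. The other cells kept had 1553 CPM of Spp1 in the DMM library and 713 CPM in the sham library. Stress and metabolic proteins followed. The small heat shock protein Cryab had 299 CPM in DMM cells and 151 CPM in sham cells, and the fatty acid carrier Fabp5 56.5 CPM in DMM cells and 28.3 CPM in sham cells. Aldose reductase (Akr1b3) was 1.83-fold higher and the lysosomal protease cathepsin H (Ctsh) 1.75-fold higher. Fxyd2, which also set the population apart from Casr cells, had 575 CPM in DMM cells and 337 CPM in sham cells.

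**Figure D4:**
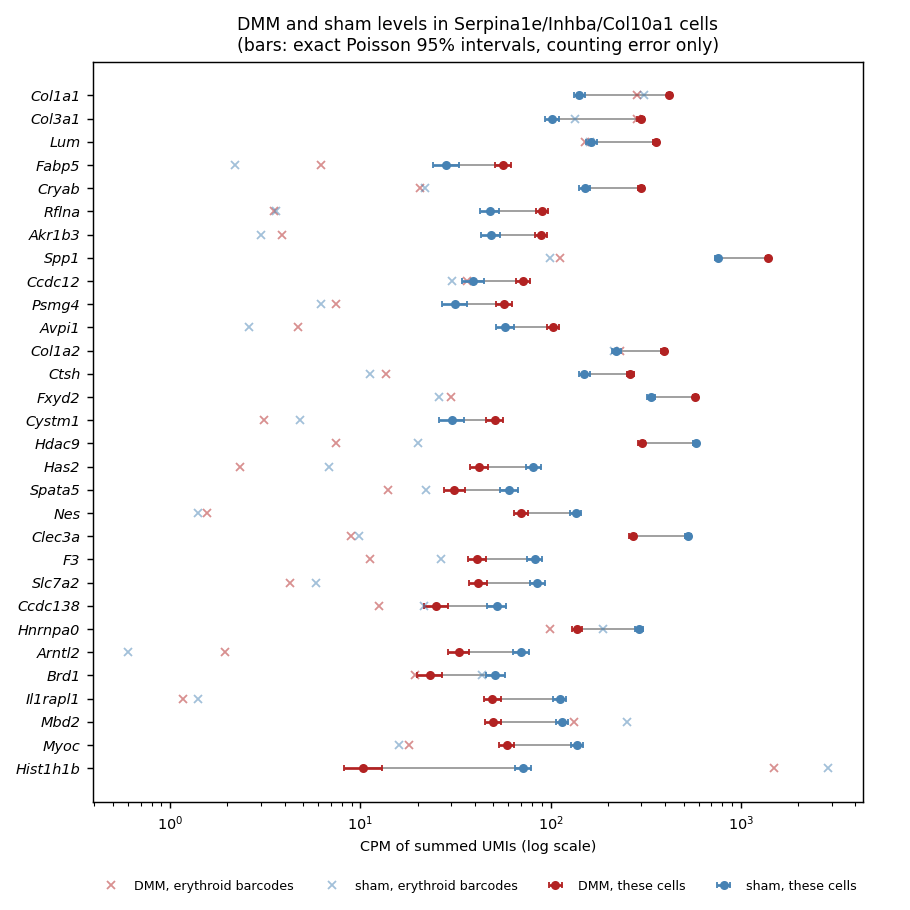
Each row gives the CPM of a gene in DMM cells (red) and sham cells (blue) of the population on a log axis, with exact Poisson 95% intervals, and crosses mark haemoglobin-rich barcodes. Col1a1 (421 against 142 CPM) heads the 15 higher genes, and Hist1h1b (10.4 against 71.4 CPM), at the bottom, also has its highest levels in haemoglobin-rich barcodes.

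Matrix and surface genes were found among those lower in DMM cells. Clec3a, a lectin of cartilage, had 270 CPM in DMM cells and 529 CPM in sham cells [log2 -0.97, -1.05 to -0.89]. Has2, which makes hyaluronan, had 42.3 CPM in DMM cells and 81.3 CPM in sham cells. Myocilin (Myoc), a secreted glycoprotein, had 58.7 CPM in DMM cells and 138 CPM in sham cells, and was lower in DMM Casr cells too, at 127 CPM against 475 CPM in sham Casr cells. Nestin, a leading gene of the population, had 69.8 CPM in DMM cells and 135 CPM in sham cells. Tissue factor (F3), which starts clotting, was 2.00-fold lower and the amino acid carrier Slc7a2 2.05-fold lower in DMM cells.

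Regulators of chromatin and transcription were also among the lower genes. Hdac9, a histone deacetylase, had 302 CPM in DMM cells and 579 CPM in sham cells. Mbd2, a reader of methylated DNA, had 49.9 CPM in DMM cells and 115 CPM in sham cells, while haemoglobin-rich barcodes carried 133 CPM in the DMM library and 251 CPM in the sham library. Arntl2, a clock transcription factor, was 2.13-fold lower, and Brd1, a chromatin reader, 2.21-fold lower. Over the other cells kept, these genes were lower in the DMM library too. Hdac9 had 79.5 CPM there in the DMM library and 138 CPM in the sham library, and Mbd2 96.5 CPM and 207 CPM. Brd1 had 31.1 CPM in the DMM library and 54.9 CPM in the sham library, and Arntl2 9.96 CPM and 15.3 CPM. In Casr cells Hdac9 had 562 CPM in the DMM library and 931 CPM in the sham library. The linker histone gene Hist1h1b had 10.4 CPM in DMM cells and 71.4 CPM in sham cells. It stood at 1489 CPM in DMM and 2869 CPM in sham haemoglobin-rich barcodes, and without called doublets it had 6.53 CPM in DMM cells and 16.4 CPM in sham cells. The cell cycle list had 4 of 11 genes at least 2-fold lower in DMM cells (2.2% of all genes), with a median log2 ratio of -0.71. Without called doublets 6 of its genes could be compared, 2 were at least 1.5-fold lower (8.24% of all genes) and the median was -0.44. The proliferation gene Mki67 had 17.2 CPM in DMM cells and 48.3 CPM in sham cells. Without called doublets, Mki67 had 7.67 CPM in DMM cells and 15.1 CPM in sham cells.

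Most energy metabolism genes differed by less than 1.5-fold, with list medians above that of all genes. Of 20 respiratory chain genes, Uqcrq and Cox8a were at least 1.5-fold higher in DMM cells (3.76% of all genes), none was lower, and the median log2 ratio of DMM over sham was 0.46, against -0.09 for all genes. Cox8a, a subunit of cytochrome oxidase, had 442 CPM in DMM cells and 281 CPM in sham cells. Of 22 glycolysis and hypoxia genes, Eno1 and Adm were at least 1.5-fold higher and none lower, with a median of 0.40. The glycolytic enzyme gene Eno1 had 474 CPM in DMM cells and 287 CPM in sham cells, and Gapdh 1444 CPM in DMM cells and 1054 CPM in sham cells. Of 18 metallothionein and antioxidant genes, Hmox1 was at least 1.5-fold higher and none lower, with a median of 0.28. Without called doublets these medians were 0.45, 0.40 and 0.30, against -0.07 for all genes.

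The length of a gene in the genome went with its ratio. Over 10425 genes, the Spearman correlation of gene span with the log2 ratio of DMM over sham was -0.48, and genes share the libraries' depth and composition, so they are not independent. With the genes cut by span into 4 equal bins, from the shortest to the longest, the median log2 ratio was 0.23, -0.01, -0.19 and -0.33. The part of gene span in the list medians was not tested.

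Of 16 receptors and signal carriers of the TGF-beta family, 4 were at least 1.5-fold lower in DMM cells (9.63% of all genes), none was higher and none passed 2-fold. The list's median log2 ratio was -0.42, and -0.37 with 3 genes lower without called doublets. The 4 genes were Acvr2a, Bmpr2, Tgfbr1 and Smad2. Tgfbr1, a receptor kinase, had 116 CPM in DMM cells and 200 CPM in sham cells [log2 -0.78, -0.91 to -0.66]. Bmpr2, a receptor of BMP ligands, had 143 CPM in DMM cells and 240 CPM in sham cells. Acvr2a, an activin receptor, was low in both, at 14.7 CPM in DMM cells and 22.6 CPM in sham cells. The ligand gene Bmp5 had 212 CPM in DMM cells and 400 CPM in sham cells, and the target gene Id1 296 CPM in DMM cells and 192 CPM in sham cells. Follistatin (Fst), the antagonist of activin, was near the floor, at 3.42 CPM in DMM cells and 3.08 CPM in sham cells.

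Inflammatory genes went in both directions. Nos2, the inducible nitric oxide synthase, had 4.73 CPM in DMM cells and 36.0 CPM in sham cells [log2 -2.93, -3.48 to -2.41], and the cell with most held 11.1% of its DMM UMIs and 9.05% of its sham UMIs. Lif had 25.4 CPM in DMM cells and 43.3 CPM in sham cells. Ptgs2, the inducible cyclooxygenase, had 18.8 CPM in DMM cells and 6.85 CPM in sham cells, with 40% of the sham UMIs in a single cell, and Lcn2 was 1.54-fold higher in DMM cells. The chemokine genes Ccl2 and Ccl7 were lower, but a single cell held 88.5% of the sham UMIs of Ccl2 and 65.2% of those of Ccl7. Without called doublets the log2 ratio was 1.35 for Ccl2 and -0.69 for Ccl7, on few UMIs. Of the 17 genes compared, 1 was at least 2-fold higher and 3 at least 2-fold lower (0.796% and 2.2% of all genes), with a list median of -0.11. Without called doublets the list median was 0.23, and of 15 genes compared 5 were at least 1.5-fold higher and 3 lower, against 2 and 4 of 17 with the doublets. The sign of the median changed in this way for 8 of the 25 functional lists.

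Among other lists, axon guidance and nerve growth had a median of -0.50 over 12 genes, and without called doublets the lowest median of the 25 functional lists, -0.46 over 11 genes. Neuropeptide Y (Npy) went the other way, with 144 CPM in DMM cells and 25.7 CPM in sham cells, but a single cell held 29.3% of its DMM UMIs and the direction turned with a stricter Prg4 limit, at a log2 ratio of -0.67 with at least 40000 CPM of Prg4. The low Slit2 value in DMM cells, 1.84 CPM against 23.6 CPM in sham cells, came with 80.4% of the sham UMIs in a single cell. Of 16 superficial zone genes, Crtac1, a secreted cartilage protein, was the one past 2-fold, with 8.80 CPM in DMM cells and 0.17 CPM in sham cells, where it had 1 UMI [log2 5.68, 3.16 to 11.0]. None of 19 cartilage matrix genes reached 2-fold, and Vcan was lower, at 106 CPM in DMM cells and 195 CPM in sham cells. The response genes of mechanical signalling Ccn1 and Ccn2 were past 1.5-fold lower, Ccn2 with 1980.2 CPM in DMM cells and 3009.6 CPM in sham cells.

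**Figure D5:**
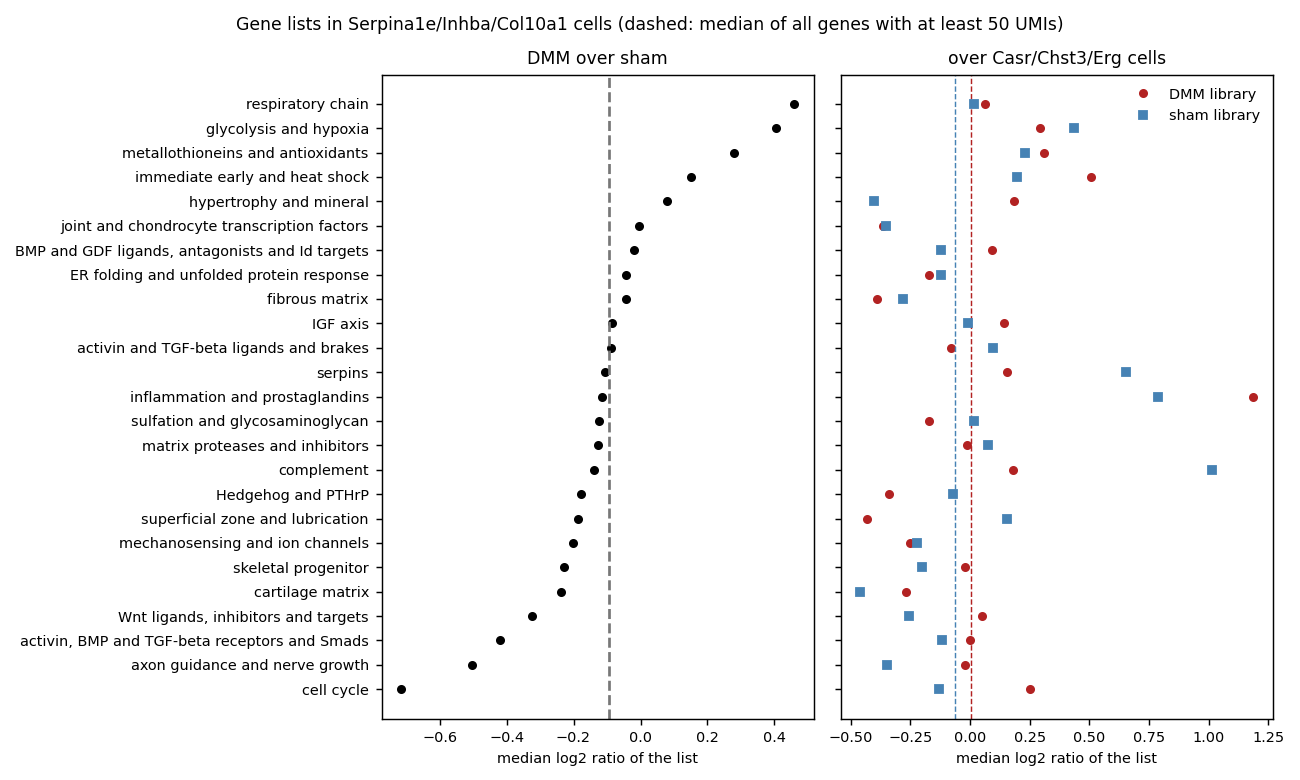
The left panel gives the median log2 ratio of DMM over sham for 25 gene lists in the population, and the right panel that of the population over Casr cells in the DMM library (red) and the sham library (blue). The respiratory chain (0.46) and the cell cycle (-0.71 with all cells, -0.44 without called doublets) lie at the ends on the left, and inflammation (1.19 in the DMM library) lies far right on the right.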

How the data were processed

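Deposited values were UMI counts per gene and barcode, without normalisation, per the file headers from Cell Ranger 7.1.0, whereas Cell Ranger 3.0.1 and mm10 stand in the submitters' processing notes. The bulk table's 6 sample columns match no sample and were not used. The members, lists and comparisons were chosen with earlier results of these data known. UMIs were summed over the members of each library and divided by the library's member total (CPM). CPM carries exact Poisson, ratios exact conditional binomial and shares Clopper-Pearson intervals (95%). Only the interval of a ratio of shares is log-normal. Genes needed 50 UMIs, the 9 rule genes were left out of counts, and 34 gene lists were used, 25 functional and 9 of markers. Cells are not replicates, so no p-values were computed.

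The naming rule took the 15 largest ratios in each direction among genes of 100 or more UMIs, with 50 CPM or more in whichever library was higher, no cell over 20% of the UMIs there, and 1 direction under both CPM and median-of-ratios scaling. Against Casr cells the smaller of both libraries' ratios ranked genes. Up to 4 members came from each list, and the text gives some of them. Mitochondrial, ribosomal, haemoglobin and unnamed genes were left out of the rankings of DMM over sham and over Casr cells, and kept in those of the Fano factor and of leading genes. The Ihh and Panx3 cells and the division by leading gene were added after the data were seen, and Ptgs2, Mki67, Gapdh and similar genes outside the rule were picked from the lists then.

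Lining cells had at least 2 UMIs of Clic5 and Htra4 and haemoglobin-rich barcodes at least 200000 CPM of haemoglobin. Doublets were kept. Scrublet (scanpy 1.11.5, seed 1) called 3.64% of DMM and 4.63% of sham cells, and results without them are given. On simulated counts for the DMM over sham comparison (10449 genes), 93% of genes changed 2.5-fold were called and 96.1% of intervals of unchanged genes held the truth. Those draws had no variation between cells. Python 3.11.15, numpy 2.4.6, scipy 1.17.1 and pandas 2.3.3 were used, with gene positions from GENCODE vM21 and promoters from RefSeq (GRCm38.p6).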

Additional observations from a re-analysis of the deposited data

Results flagged for a closer look

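Of 140 genes named in the comparisons, 15 had log2 ratios of DMM over sham with opposite signs in the population and in the Casr cells, both with intervals that did not reach equality, and the difference itself was not tested. Il11 had a log2 ratio of DMM over sham of 0.53 in the population, where DMM cells had 101 CPM and sham cells 70.0 CPM, and of -2.12 in Casr cells, where the DMM library had 3 UMIs and the sham library 18. The sign in the population turned under both settings named for Il11 in the next section. A single cell held 17.1% of the DMM UMIs and 46.2% of the sham UMIs of Il11 in the population. Timp1 had a log2 ratio of -0.252 in the population, with 437 CPM in DMM cells and 520.3 CPM in sham cells, and of 0.72 in Casr cells, with 89.4 CPM in the DMM library and 54.4 CPM in the sham library. Serpina3n, an acute-phase protease inhibitor, had a log2 ratio of 0.44 in the population, with 342 CPM in DMM cells and 252 CPM in sham cells, and of -1.13 in Casr cells, with 46.6 CPM in the DMM library and 102 CPM in the sham library.

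Msmp had a log2 ratio of 0.307 in the population, with 942 CPM in DMM cells and 762 CPM in sham cells, and of -1.11 in Casr cells, with 287 CPM in the DMM library and 621 CPM in the sham library. Haemoglobin-rich barcodes carried 48.7 CPM of Msmp in the DMM library and 752 CPM in the sham library. Lining cells had 263 CPM of Msmp in the DMM library and 2773 CPM in the sham library. The part of free RNA in the Msmp values was not tested. Ibsp had 0.157 in the population and -0.67 in Casr cells, and its sign in the population turned under settings named in the next section. Smoc2 had -0.344 in the population and 0.19 in Casr cells. Smaller ratios of abundant cartilage genes also had opposite signs. They were -0.243 in the population and 0.05 in Casr cells for Cilp, -0.0936 and 0.36 for Col2a1, -0.146 and 0.26 for the secreted protein gene Cytl1, and -0.0518 and 0.16 for the matrix protein gene Sparc.

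The remaining genes rested on few UMIs in Casr cells. Cxcl1 had a log2 ratio of -0.534 in the population, with 40.3 CPM in DMM cells and 58.4 CPM in sham cells, and of 2.47 in Casr cells, from 12 DMM UMIs and 3 sham UMIs. Ptgs2 had a log2 ratio of 1.46 in the population and of -2.99 in Casr cells, from 1 DMM UMI and 11 sham UMIs. The matrix protein gene Tnc had a log2 ratio of 1.09 in the population, with 23.6 CPM in DMM cells and 11.1 CPM in sham cells, and of -2.34 in Casr cells, from 5 DMM UMIs and 35 sham UMIs. Col14a1 had -0.765 in the population and 2.35 in Casr cells, from 37 DMM UMIs and 10 sham UMIs. Myh11 had -1.19 in the population and 4.32 in Casr cells, from 29 DMM UMIs and 2 sham UMIs.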

How the results depend on the processing

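No paired analysis was possible because each group was 1 library. Over 13 other settings and 1 added after seeing the data (1 UMI of Clic5 or Htra4 allowed), 2629 of 2666 values of named genes whose interval did not reach equality kept their direction, and 37, of 18 genes, turned. Of 170 values of ratios whose interval held equality, among them Serpina1e, Penk and Eng, 45 changed sign. The values that turned are log2 ratios of DMM over sham except where named. Without called doublets they were -0.0274 for Prg4, 1.27 for Serpina1a and 0.203 for Col14a1. With no UMI of Casr, Chst3 or Erg allowed they were -0.783 for Mgp, -0.939 for Ibsp, 0.382 for Sparc, 0.0617 for Cytl1, 0.152 for Col2a1, 0.124 for Serpina1d, -0.664 for Il11, -0.150 for Fn1, 3.40 for Serpina1a, 0.158 for Serpina1b and 0.144 for Thbs1, and the log2 ratio over Casr cells in the DMM library was -0.0975 for Spp1 and -0.186 for Sbspon. With at least 10000 CPM of Prg4 they were -0.0223 for Prg4, 0.00431 for Sparc and 0.155 for Serpina1a. With at least 40000 CPM they were -0.0132 for Mgp, -0.0173 for Prg4, -0.783 for Ibsp, 0.293 for Col2a1, -0.669 for Npy, 0.447 for Serpina1d, -0.527 for Il11, 1.86 for Serpina1a and 0.114 for Serpina1b. Thinned to 5000 UMIs they were -0.619 for Ibsp, 0.0174 for Hba-a2 and 0.0381 for Serpina1b. With 1 UMI of Clic5 or Htra4 allowed they were 0.0377 for Sparc, 0.0337 for Col2a1 and -0.349 for Acta2. Median-of-ratios scaling gave 0.041 for Sparc, and leaving out each gene's top cell -0.328 for Ibsp and 0.0141 for Serpina1b. Genes that fell under 50 UMIs in a setting gave no value there. The causes of the following shifts were not tested, beyond the number of genes or cells each leaves. With no UMI of Casr, Chst3 or Erg allowed, the log2 ratio of shares was 1.35 of all cells and 1.06 of Prg4-rich cells, against 0.52 and 0.23, and 70 genes were higher and 84 lower than in Casr cells, against 112 and 44. A Prg4 limit of 10000 CPM gave 0.326 of Prg4-rich cells and one of 40000 CPM 0.130. Genes lower in DMM cells, 229 as reported, numbered 130 without called doublets and 121 after thinning to 5000 UMIs. A minimum of 200 UMIs gave 13 higher and 39 lower in DMM cells, and 50 higher and 29 lower than in Casr cells. No minimum gave 266 higher and 605 lower in DMM cells, and 76 lower than in Casr cells. Leaving out a library was impossible with 1 per group. Depth limits genes under about 50 UMIs, and the 148 DMM Casr cells set the width of intervals against them.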
